A study of Mus musculus with 12 samples.

Results

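The genes described here encode the DNA replication machinery and the enzymes that supply it with deoxynucleotides. They are 51 of the 19057 genes that the arrays name by a single symbol. They were chosen by symbol and not by a measured value, though with earlier results of these data known. The list holds origin licensing factors, the replicative helicase and its loading factors, the kinase that fires origins, and polymerases and primase. It also holds the sliding clamp with its loader and the strand-joining enzymes, single-strand binding proteins, nucleotide enzymes and the chromatin assembly factor. All 51 had a probe. Where a gene had several probes, the probe with the highest mean over the 12 mice stood for it.

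Spleens of 12 male mice of the strain C57Bl/6J were profiled on Illumina whole-genome bead arrays, with 1 array per mouse and 4 mice per diet. The mice, bought at 6 weeks of age and acclimatized for 3 weeks, received their diet for 8 weeks, with no transgene or deletion named, and were picked for the arrays from larger groups by body weight, plasma triglycerides and plasma cholesterol. In 100 g of the control diet there were 5 g fat, made of 2.5 g corn oil and 2.5 g coconut oil, and no added cholesterol. The corn oil high fat diet (HFD-CO) provided 15 g fat in the same amount, made of 5 g corn oil and 10 g coconut oil, with 1 g cholesterol. The EPA and DHA enriched high fat diet (HFD-ED) differed from HFD-CO in that 2 g of the corn oil was replaced by EPA and DHA triglycerides, which left 3 g corn oil per 100 g beside the same 10 g coconut oil and 1 g cholesterol. HFD-ED compared with HFD-CO therefore asks what the exchange of oils did at equal fat. Either high fat diet compared with control also differs in the amounts of fat, corn oil, coconut oil and cholesterol. By the diet composition of the study it differs in casein, sucrose, corn starch, cellulose, minerals, choline and methionine as well.

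Each replication origin is licensed when the origin recognition complex (Orc1 to Orc6), Cdc6 and Cdt1 load the Mcm2 to Mcm7 ring onto DNA, and it fires when the Cdc7 and Dbf4 kinase lets Cdc45 and the GINS complex join the ring as the active helicase. Polymerase alpha and primase then lay down primers, polymerases delta and epsilon copy the strands on the Pcna clamp, and Fen1 and Lig1 process and seal the lagging strand, while ribonucleotide reductase, thymidylate synthase and thymidine kinase provide the precursors. Many of these genes are transcribed in late G1 and S phase under E2F transcription factors, and in the adult mouse spleen dividing cells include activated lymphocytes as well as erythroid, myeloid and megakaryocytic precursors.

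Levels are given as the deposited normalized values on a log2-type scale. They ran from 6.95 to 14.79 with a median of 7.14, so a value near 7 lies at the floor of the arrays. A gene with a mean under 7.5 over the 12 mice is called dim here. Of the 51 replication genes 9 were dim (Orc1, Orc2, Orc4, Gmnn, Pola1, Prim1, Pole2, Rfc3 and Dut) and 42 were not. Differences between diets of dim genes are compressed on this scale, and levels of different probes cannot be ranked against each other.

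Some arrays stood apart, or went against a label. Arrays of the same diet correlated over all probes with r between 0.971 and 0.995. HFD-CO replicate 4 carried pancreatic acinar transcripts, with a median over 9 markers that lay 4.78 above the 12-mouse mean, and HFD-CO replicate 1 lay 0.78 above it. HFD-ED replicate 3 was the highest of all 12 mice in 13.4% of all genes. Among genes that were not dim it was the highest in 20.7% and the lowest in 27%, the largest share of any mouse both ways. The extraction note of the labels names skeletal muscle, while the titles, the tissue label and the methods name spleen. The data went with spleen, since 9 of 10 skeletal muscle markers were dim (all but Tnni2). Of the T cell markers 7 of 9 were not dim, nor was any measured marker of red pulp macrophages.

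Replication genes were higher in the spleens of mice fed HFD-ED than in those of mice fed either other diet, in most members but with a wide spread between mice. HFD-ED exceeded control in the mean of 47 of the 51 genes, with a median difference of 0.32 on the log2 scale, and exceeded HFD-CO in 50 of 51, with a median of 0.27. Over all genes the median difference was -0.0036 and -0.0026, and 45.9% and 47.0% of genes were higher on average in HFD-ED. Both comparisons use the same 4 HFD-ED mice, so they are not independent of each other. In RNA from whole spleen, more cells of a dividing type and more RNA of these genes per cell cannot be told apart.

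No single replication gene passed the test once all 45281 probes were adjusted for. With limma and Benjamini-Hochberg adjustment at 0.05, 0 of the 51 members were called for HFD-ED against control (0% of all genes called), 0 for HFD-ED against HFD-CO (0.00525%, which is 1 gene, Zfp58) and 0 for HFD-CO against control (0%). These adjusted p-values belong to this fit of the deposited values, and any terms beside diet and any probe filters of the authors' own limma fit were not given in the sources used here. The smallest limma adjusted p among the members was 0.204 for Rfc2 in the first of these comparisons and 0.345 for Pola2 in the next. At an unadjusted p under 0.05, 34 of 51 (66.7%) were higher in HFD-ED than in control, against 5.69% of all genes and 10.3% of genes that were not dim. Likewise 26 of 51 (51%) were higher in HFD-ED than in HFD-CO, against 6.07% and 10.9%. None of the members was lower at that level in any comparison, where 7.55%, 5.82% and 2.88% of all genes were lower for HFD-ED against control, HFD-ED against HFD-CO and HFD-CO against control. A difference of at least 0.5 was found in 18 members against control (1.36% of all genes) and in 14 against HFD-CO (1.39%).

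**Figure D1:**
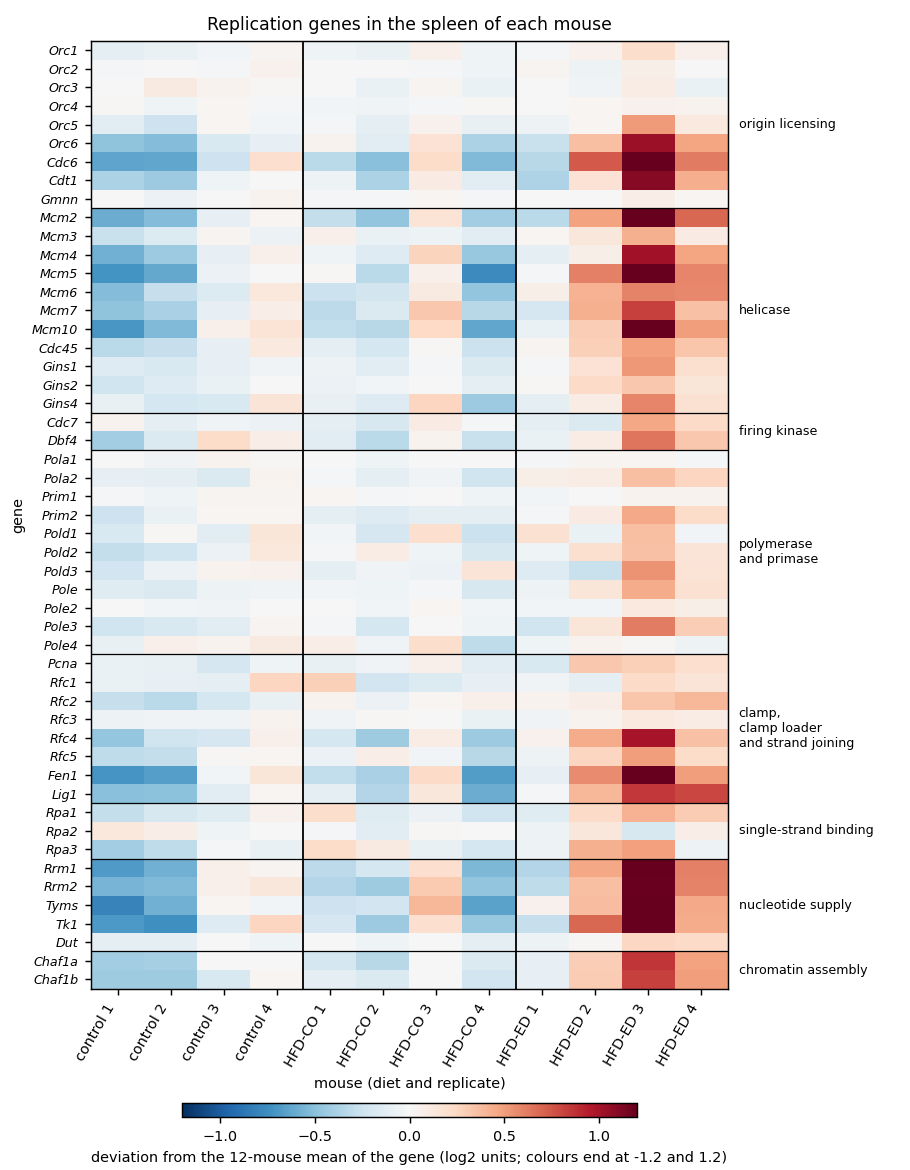
Heat map of the 51 replication genes (vertical axis, by role) in the 12 mice (horizontal axis, by diet), with each gene's deviation from its own mean over the mice in log2 units as color. HFD-ED replicate 3 held the highest value of all mice in 44 of the 51 genes (13.4% of all genes), and HFD-ED replicate 1 the lowest of its diet in 43 (25.6%).

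The mice fed HFD-ED did not move as a block. HFD-ED replicate 3 was the highest of all 12 mice in 44 of the 51 genes (13.4% of all genes, 20.7% of genes that were not dim). In 46 it was the highest of its diet (26.6% of all genes). HFD-ED replicate 1 was the lowest of its diet in 43 genes (25.6% of all genes). Its level was above all 4 control mice in only 6 members, while HFD-ED replicates 2, 3 and 4 were above all of them in 35, 46 and 42. Against the 4 HFD-CO mice the corresponding numbers were 5, 36, 48 and 44 for HFD-ED replicates 1 to 4 (18.9%, 23.5%, 23.6% and 21.6% of all genes). For all genes, between 19.2% and 24.0% lay above all control mice in a given HFD-ED mouse.

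Mice fed the other diets differed among themselves in these genes too. The median deviation of the 51 members from the 12-mouse mean was -0.27, -0.20, -0.05 and 0.03 in control replicates 1 to 4. It was -0.06, -0.14, 0.03 and -0.19 in HFD-CO replicates 1 to 4, and -0.06, 0.15, 0.49 and 0.23 in HFD-ED replicates 1 to 4. Control replicate 1 was the lowest of all 12 mice in 23 members (6.96% of genes that were not dim). Control replicate 4 was the highest of its diet in 38 members (24.2% of all genes). HFD-CO replicate 3 was the highest of its diet in 36 (25.1%) and HFD-CO replicate 4 the lowest of its diet in 34 (25.5%). The HFD-ED range thus overlapped both other ranges, through HFD-ED replicate 1.

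Complete separation of the diets was rare for this reason. All 4 HFD-ED values lay above all 4 control values in 5 members (Gins1, Gins2, Pola2, Rfc2 and Tyms), 9.8% of the list against 1.99% of all genes and 2.61% of genes that were not dim. They lay above all 4 HFD-CO values in 4 members (Cdc45, Gins2, Pola2 and Prim2), against 1.93% and 2.65%. With HFD-ED replicate 1 left out, 33 of 51 were separated from control (7.07% of all genes) and 33 from HFD-CO (6.81%). Without control replicate 4 the number against control was 15 (3.97%), and without HFD-CO replicate 3 the number against HFD-CO was 17 (4.23%). Gins2, a subunit of the GINS complex, and Pola2, the regulatory subunit of polymerase alpha, were separated from both diets with all mice kept.

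Counts at an unadjusted p under 0.05 moved as well when a mouse was left out. Without HFD-ED replicate 3, 19 members were higher than in control (4% of all genes) and 12 higher than in HFD-CO (4.16%). Without HFD-ED replicate 1, the number was 38 in both comparisons (8.05% and 8.18%), and 2 members, Pcna and Rfc2, passed an adjusted p of 0.05 against control (0.304% of all genes). The median difference from control stayed between 0.23 and 0.42 whichever mouse was left out, and that from HFD-CO between 0.19 and 0.38.

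The origin licensing factors had differences of unequal size, and Orc1, Orc2, Orc4 and Gmnn among them are dim, where differences are compressed. The median difference over the 9 genes was 0.13 against control and 0.11 against HFD-CO. At an unadjusted p under 0.05, 4 and 2 of them were higher (5.69% and 6.07% of all genes, 10.3% and 10.9% of genes that were not dim). The larger differences belonged to Orc6, Cdc6 and Cdt1. Orc2 to Orc5, of which Orc2 and Orc4 are dim, had a median of 0.02 against control and 0.04 against HFD-CO. Of those not dim, Orc5 was higher by 0.24 than in control (0.36 on its other probe) and Orc3 differed by -0.05.

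Cdc6, the ATPase that recruits the helicase ring to the origin, measured 7.65, 7.66, 8.03 and 8.49 in control replicates 1 to 4, 7.96, 7.78, 8.50 and 7.75 in HFD-CO replicates 1 to 4, and 7.95, 9.02, 9.69 and 8.90 in HFD-ED replicates 1 to 4. HFD-ED replicates 2, 3 and 4 lay above every mouse of the other diets, and HFD-ED replicate 1 lay inside both. The mean was higher in HFD-ED by 0.93 ± 0.33 (difference ± SE, n = 4 per diet) than in control, a 1.91-fold ratio, with a limma adjusted p of 0.400. It was higher by 0.89 ± 0.33 than in HFD-CO, with a limma adjusted p of 0.482, and HFD-CO and control differed by 0.04.

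Orc6, the smallest subunit of the origin recognition complex, measured 8.77, 8.73, 9.07 and 9.15 in the control mice, 9.29, 9.12, 9.43 and 8.87 in HFD-CO, and 8.99, 9.62, 10.28 and 9.72 in HFD-ED (replicates 1 to 4, the order used from here on). HFD-ED replicates 2 to 4 were again above all other mice. The difference was 0.72 ± 0.23 from control (limma adjusted p = 0.356) and 0.47 ± 0.23 from HFD-CO (limma adjusted p = 0.575). Cdt1, which carries the helicase ring to the origin, had differences of 0.55 ± 0.25 and 0.45 ± 0.25.

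Orc1, an ATPase subunit of the origin recognition complex, is dim: 7.08, 7.12, 7.17 and 7.23 in control, 7.15, 7.13, 7.27 and 7.15 in HFD-CO, and 7.19, 7.26, 7.42 and 7.27 in HFD-ED. These ranges overlapped and the difference from control was 0.13 ± 0.05 (limma adjusted p = 0.419). Orc3, a core subunit of the same complex, measured 7.63, 7.73, 7.66 and 7.64 in control, 7.62, 7.54, 7.65 and 7.54 in HFD-CO, and 7.63, 7.58, 7.72 and 7.54 in HFD-ED. Its difference from control was -0.05 ± 0.04, one of the few below 0. Orc5 was higher by 0.24 ± 0.11 than in control, Orc2 by 0.01 ± 0.03, Orc4 by 0.04 ± 0.02 and Gmnn, the inhibitor of Cdt1, by 0.03 ± 0.03.

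All 11 helicase genes were higher on average in HFD-ED than in both other diets, with a median difference of 0.57 against control and 0.46 against HFD-CO. At an unadjusted p under 0.05, 10 and 8 of them were higher (5.69% and 6.07% of all genes, 10.3% and 10.9% of genes that were not dim). The 6 ring subunits Mcm2 to Mcm7 had a median of 0.62 and 0.55. Mcm3 had the smallest ring difference from control (0.29 ± 0.09), and Mcm2 (0.85 ± 0.30), Mcm4 (0.63 ± 0.24) and Mcm7 (0.57 ± 0.22) lay between it and Mcm5.

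Mcm5 had the largest difference from control among the 51 members. It measured 9.98, 10.08, 10.62 and 10.69 in control, 10.70, 10.36, 10.75 and 9.92 in HFD-CO, and 10.66, 11.30, 11.91 and 11.28 in HFD-ED. HFD-ED replicates 2 to 4 exceeded all mice of the other diets, while HFD-ED replicate 1 lay just below the highest control and the highest HFD-CO mouse. The difference was 0.95 ± 0.28 from control, 1.93-fold (limma adjusted p = 0.328), and 0.85 ± 0.28 from HFD-CO, 1.81-fold (limma adjusted p = 0.454).

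Mcm6, another ring subunit, measured 9.56, 9.80, 9.91 and 10.20 in control, 9.82, 9.85, 10.19 and 9.60 in HFD-CO, and 10.15, 10.50, 10.67 and 10.65 in HFD-ED. Only control replicate 4 and HFD-CO replicate 3 reached the lowest HFD-ED value. The difference was 0.62 ± 0.16 from control and 0.62 ± 0.16 from HFD-CO (limma adjusted p = 0.297 and 0.357).

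The promoters of the replication genes were searched for the letters of E2F sites. The letters TTTGGCGC, TTTCCCGC, TTTGCCGC and TTTCGCGC, which spell the consensus of E2F binding, were searched on both strands in the 250 bases before each gene start in RefSeq (build GRCm38.p6). Of the 51 members 43 had such a window, and 9 of the 43 (20.9%) held at least 1 match, against 583 of 27025 genes (2.16%) with a window. The 9 were Orc1, Orc3, Cdc6, Mcm5, Mcm6, Mcm7, Pola1, Pole4 and Rfc3. The stretches around the matches in Mcm5 (chr8:75109330-75109393, plus strand), Mcm6 (chr1:128359778-128359841, minus strand) and Rfc3 (chr5:151651209-151651244, minus strand) are shown because the first 2 genes have large differences and the last does not. All 3 lie upstream of the annotated start, and capitals mark the matched letters.
Mcm5: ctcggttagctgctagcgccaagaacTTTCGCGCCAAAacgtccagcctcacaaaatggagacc
Mcm6: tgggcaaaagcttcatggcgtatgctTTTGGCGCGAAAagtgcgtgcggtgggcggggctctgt
Rfc3: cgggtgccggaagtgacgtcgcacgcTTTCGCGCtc
In Mcm5 and Mcm6 the capitals hold a pair of matches that overlap on opposite strands. A further match in Mcm6, 47 bases before the start, lies outside the stretch shown. A match did not go with a larger difference in every gene. Mcm5, Mcm6 and Cdc6 had differences of 0.95, 0.62 and 0.93 from control, whereas Orc3 and Pole4 had -0.05 each, and Pola1 and Rfc3 were dim with differences of 0.00 and 0.07. These letters mark a sequence match, and binding was not measured.

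Cdc45, which joins the ring when an origin fires, measured 7.36, 7.41, 7.59 and 7.80 in control, 7.57, 7.47, 7.69 and 7.42 in HFD-CO, and 7.72, 7.96, 8.17 and 8.01 in HFD-ED. All HFD-ED mice were above all HFD-CO mice, and control replicate 4 was the only other mouse above the lowest of them. The difference was 0.43 ± 0.11 from control and 0.42 ± 0.11 from HFD-CO (limma adjusted p = 0.297 and 0.370).

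Gins2 was separated from both diets. It measured 7.44, 7.52, 7.59 and 7.67 in control, 7.60, 7.64, 7.67 and 7.56 in HFD-CO, and 7.69, 7.91, 7.995 and 7.82 in HFD-ED, and the lowest HFD-ED mouse lay just above the highest of the others. The difference was 0.30 ± 0.06 from control and 0.23 ± 0.06 from HFD-CO (limma adjusted p = 0.252 and 0.400). Gins1, of the same complex, was higher by 0.34 ± 0.09 than in control with no overlap, Gins4 by 0.27 ± 0.16 with overlap, and Mcm10, which helps to activate the helicase, by 0.76 ± 0.30.

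**Figure D2:**
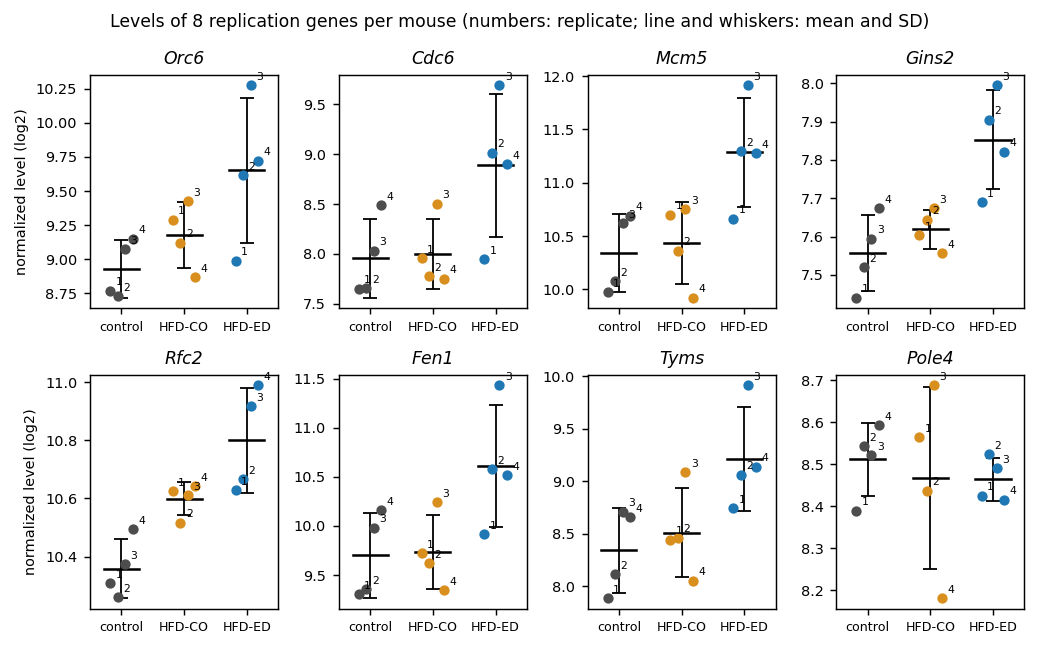
Normalized log2 level (vertical axis) of 8 replication genes in each mouse by diet (horizontal axis), with replicate numbers beside the points and lines and whiskers for the mean and SD of 4 mice. HFD-ED replicates 2 to 4 lie above the other diets in Orc6, Cdc6, Mcm5 and Fen1 while HFD-ED replicate 1 lies among them, Gins2 is separated from both diets, and Pole4 differs little.

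Of the firing kinase, neither subunit was higher than in control at an unadjusted p under 0.05, and Dbf4 was higher than in HFD-CO at that level. Cdc7, the catalytic subunit, measured 8.45, 8.30, 8.36 and 8.34 in control, 8.30, 8.22, 8.50 and 8.40 in HFD-CO, and 8.29, 8.23, 8.87 and 8.63 in HFD-ED, with HFD-ED replicates 1 and 2 at the low end of all mice. Its difference was 0.14 ± 0.12 from control and 0.15 ± 0.12 from HFD-CO (limma adjusted p = 0.770 and 0.776). Dbf4, the activating subunit, measured 7.96, 8.21, 8.60 and 8.46 in control, 8.25, 8.06, 8.43 and 8.12 in HFD-CO, and 8.30, 8.47, 9.02 and 8.71 in HFD-ED. The ranges overlapped, with a difference of 0.32 ± 0.17 from control and 0.41 ± 0.17 from HFD-CO, and Dbf4 had the most negative difference of HFD-CO from control among the members (-0.10 ± 0.17).

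Polymerase and primase genes had smaller differences, with a median of 0.15 against control and 0.18 against HFD-CO over 11 genes. Of these, 5 and 3 were higher at an unadjusted p under 0.05 (5.69% and 6.07% of all genes, 10.3% and 10.9% of genes that were not dim). The class holds 3 dim genes, Pola1, Prim1 and Pole2. Pola2 measured 7.99, 7.97, 7.92 and 8.13 in control, 8.07, 7.99, 8.05 and 7.85 in HFD-CO, and 8.16, 8.19, 8.45 and 8.35 in HFD-ED. Each HFD-ED mouse was above each other mouse, and the difference was 0.28 ± 0.07 from control and 0.30 ± 0.07 from HFD-CO (limma adjusted p = 0.295 and 0.345).

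Prim2, the large subunit of primase, measured 7.39, 7.56, 7.67 and 7.67 in control, 7.53, 7.49, 7.53 and 7.53 in HFD-CO, and 7.63, 7.74, 8.10 and 7.86 in HFD-ED. HFD-ED lay above all HFD-CO mice, but HFD-ED replicate 1 lay below control replicates 3 and 4. The difference was 0.26 ± 0.09 from control and 0.31 ± 0.09 from HFD-CO (limma adjusted p = 0.389 and 0.427).

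Pole, the catalytic subunit of the leading-strand polymerase, measured 7.36, 7.34, 7.45 and 7.47 in control, 7.47, 7.46, 7.49 and 7.32 in HFD-CO, and 7.45, 7.66, 7.95 and 7.69 in HFD-ED. Only HFD-ED replicate 1 overlapped the other diets, and the differences were 0.28 ± 0.09 and 0.25 ± 0.09 from control and HFD-CO (limma adjusted p = 0.344 and 0.468). Its histone-fold partner Pole4 behaved otherwise: 8.39, 8.54, 8.52 and 8.59 in control, 8.56, 8.44, 8.69 and 8.18 in HFD-CO, and 8.43, 8.52, 8.49 and 8.42 in HFD-ED. The HFD-ED values lay within both other ranges and the difference from control was -0.05 ± 0.09 (limma adjusted p = 0.919).

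Pola1, the catalytic subunit of polymerase alpha, stayed at the floor of the arrays, with 7.05, 7.01, 7.09 and 7.06 in control, 7.04, 6.99, 7.05 and 7.05 in HFD-CO, and 7.02, 7.08, 7.07 and 7.03 in HFD-ED. No diet difference can be read from such values. Of the polymerase delta subunits, Pold2 was higher by 0.28 ± 0.10 than in control, Pold1, the catalytic subunit, by 0.15 ± 0.12 and Pold3 by 0.12 ± 0.15. Pole3, the other histone-fold subunit of polymerase epsilon, was higher by 0.33 ± 0.14, Pole2 by 0.05 ± 0.03 and Prim1, the catalytic primase subunit, by 0.02 ± 0.02.

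The clamp, its loader and the strand-joining enzymes had a median difference of 0.40 against control and 0.27 against HFD-CO over 8 genes. Of these, 6 and 5 were higher at an unadjusted p under 0.05 (5.69% and 6.07% of all genes, 10.3% and 10.9% of genes that were not dim). Fen1, the flap endonuclease that trims Okazaki fragments, measured 9.31, 9.35, 9.98 and 10.16 in control, 9.72, 9.62, 10.24 and 9.35 in HFD-CO, and 9.91, 10.58, 11.43 and 10.52 in HFD-ED. HFD-ED replicates 2 to 4 were above all other mice, with differences of 0.91 ± 0.32 from control and 0.88 ± 0.32 from HFD-CO (limma adjusted p = 0.393 and 0.475).

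Lig1, the ligase that seals the fragments, measured 8.53, 8.54, 8.90 and 9.05 in control, 8.91, 8.68, 9.17 and 8.43 in HFD-CO, and 9.001, 9.42, 9.87 and 9.83 in HFD-ED. HFD-ED replicate 1 lay below control replicate 4 and HFD-CO replicate 3 only. The difference was 0.78 ± 0.22 from control and 0.74 ± 0.22 from HFD-CO (limma adjusted p = 0.312 and 0.436).

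The clamp loader subunits had differences of unequal size. Rfc4 measured 8.16, 8.38, 8.42 and 8.68 in control, 8.41, 8.20, 8.71 and 8.19 in HFD-CO, and 8.67, 9.07, 9.61 and 8.98 in HFD-ED, with HFD-ED replicate 1 level with the highest mice of the other diets. Its difference was 0.67 ± 0.19 from control and 0.70 ± 0.19 from HFD-CO (limma adjusted p = 0.317 and 0.385). Rfc5 was higher by 0.37 ± 0.13 than in control and by 0.32 ± 0.13 than in HFD-CO, Rfc1, the large subunit, by 0.06 ± 0.12 and 0.11 ± 0.12, and the dim Rfc3 by 0.07 ± 0.04 and 0.08 ± 0.04.

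Rfc2, also a loader subunit, had another order of diets on its brightest probe. It measured 10.31, 10.26, 10.37 and 10.50 in control, 10.62, 10.52, 10.61 and 10.64 in HFD-CO, and 10.63, 10.67, 10.92 and 10.99 in HFD-ED. Every mouse on either high fat diet was above every control mouse, while both high fat diets met at 10.63 and 10.64. HFD-ED exceeded control by 0.44 ± 0.08 (1.36-fold, limma adjusted p = 0.204) and HFD-CO by 0.20 ± 0.08 (limma adjusted p = 0.499), and HFD-CO exceeded control by 0.24 ± 0.08, the only difference among the members at an unadjusted p under 0.05 in that comparison. Without HFD-ED replicate 1 the difference of HFD-ED from control was 0.50, with a limma adjusted p of 0.0495. Its other 3 probes, none of them dim, gave smaller differences of HFD-CO from control (0.04, 0.03 and 0.08), none at an unadjusted p under 0.05, and differences of 0.16, 0.26 and 0.28 of HFD-ED from control and of 0.12, 0.23 and 0.20 from HFD-CO.

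Pcna, the sliding clamp, was 7.54, 7.53, 7.42 and 7.57 in control, 7.53, 7.58, 7.68 and 7.48 in HFD-CO, and 7.44, 7.94, 7.91 and 7.82 in HFD-ED. HFD-ED replicate 1 lay near the bottom of all mice and the other HFD-ED mice above all the rest. The difference from control was 0.26 ± 0.10 (limma adjusted p = 0.409).

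Single-strand binding proteins, the trimer that coats unwound DNA, differed by subunit. Rpa1, the large subunit, measured 11.30, 11.39, 11.44 and 11.64 in control, 11.80, 11.44, 11.52 and 11.34 in HFD-CO, and 11.44, 11.82, 12.01 and 11.89 in HFD-ED. The difference was 0.35 ± 0.13 from control and 0.26 ± 0.13 from HFD-CO, and HFD-ED replicate 1 again lay within the other diets. Rpa3, the small subunit, measured 9.16, 9.26, 9.55 and 9.48 in control, 9.79, 9.68, 9.48 and 9.36 in HFD-CO, and 9.51, 10.0002, 10.06 and 9.51 in HFD-ED. HFD-CO lay in between, and the differences of HFD-ED were 0.41 ± 0.15 from control and 0.19 ± 0.15 from HFD-CO.

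Rpa2, the middle subunit, showed no such pattern on its brightest probe. It measured 7.79, 7.74, 7.61 and 7.67 in control, 7.64, 7.53, 7.68 and 7.66 in HFD-CO, and 7.60, 7.80, 7.46 and 7.74 in HFD-ED, with HFD-ED replicates 2 and 3 at the top and bottom of all mice. The difference from control was -0.05 ± 0.07 (limma adjusted p = 0.875). Its probes disagreed, since the mean over all its probes gave 0.09 and the probe with the largest variance 0.22.

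Nucleotide supply had the largest median difference of the 8 classes, 0.79 against control and 0.71 against HFD-CO. All 5 genes were higher at an unadjusted p under 0.05 in both comparisons (5.69% and 6.07% of all genes, 10.3% and 10.9% of genes that were not dim). Tyms, which makes thymidylate, measured 7.89, 8.11, 8.71 and 8.66 in control, 8.45, 8.46, 9.08 and 8.05 in HFD-CO, and 8.75, 9.06, 9.91 and 9.14 in HFD-ED. All HFD-ED mice were above all control mice, while HFD-CO replicate 3 lay above HFD-ED replicates 1 and 2. The difference was 0.87 ± 0.29 from control, 1.83-fold, and 0.71 ± 0.29 from HFD-CO, 1.63-fold (limma adjusted p = 0.370 and 0.502).

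Tk1, the thymidine kinase of S phase, measured 8.33, 8.28, 8.86 and 9.28 in control, 8.81, 8.58, 9.22 and 8.56 in HFD-CO, and 8.74, 9.71, 10.36 and 9.46 in HFD-ED. HFD-ED replicates 2 to 4 were above all others. The difference was 0.88 ± 0.33 from control and 0.77 ± 0.33 from HFD-CO (limma adjusted p = 0.410 and 0.517). The ribonucleotide reductase subunits Rrm1 and Rrm2, which make deoxynucleotides from ribonucleotides, had differences of 0.79 ± 0.32 and 0.68 ± 0.30 from control and of 0.72 ± 0.32 and 0.69 ± 0.30 from HFD-CO.

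Dut, the dUTPase that keeps uracil out of DNA, is dim and measured 7.29, 7.30, 7.42 and 7.36 in control, 7.41, 7.36, 7.42 and 7.30 in HFD-CO, and 7.35, 7.42, 7.66 and 7.64 in HFD-ED. HFD-ED replicates 3 and 4 were above all mice of the other diets, replicate 2 was above them by less than the printed digits show, and the differences were 0.18 ± 0.07 and 0.15 ± 0.07.

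The subunits of chromatin assembly factor 1, which deposits histones behind the fork, had like differences. Chaf1a measured 7.49, 7.51, 7.90 and 7.91 in control, 7.69, 7.58, 7.91 and 7.74 in HFD-CO, and 7.81, 8.20, 8.77 and 8.39 in HFD-ED. Chaf1b measured 7.80, 7.80, 8.05 and 8.25 in control, 8.12, 8.05, 8.22 and 7.99 in HFD-CO, and 8.13, 8.53, 9.05 and 8.73 in HFD-ED. In both genes HFD-ED replicates 2 to 4 were above all other mice and HFD-ED replicate 1 was among them. The differences from control were 0.59 ± 0.18 and 0.64 ± 0.17 (limma adjusted p = 0.344 and 0.300), and those from HFD-CO 0.56 ± 0.18 and 0.51 ± 0.17.

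**Figure D3:**
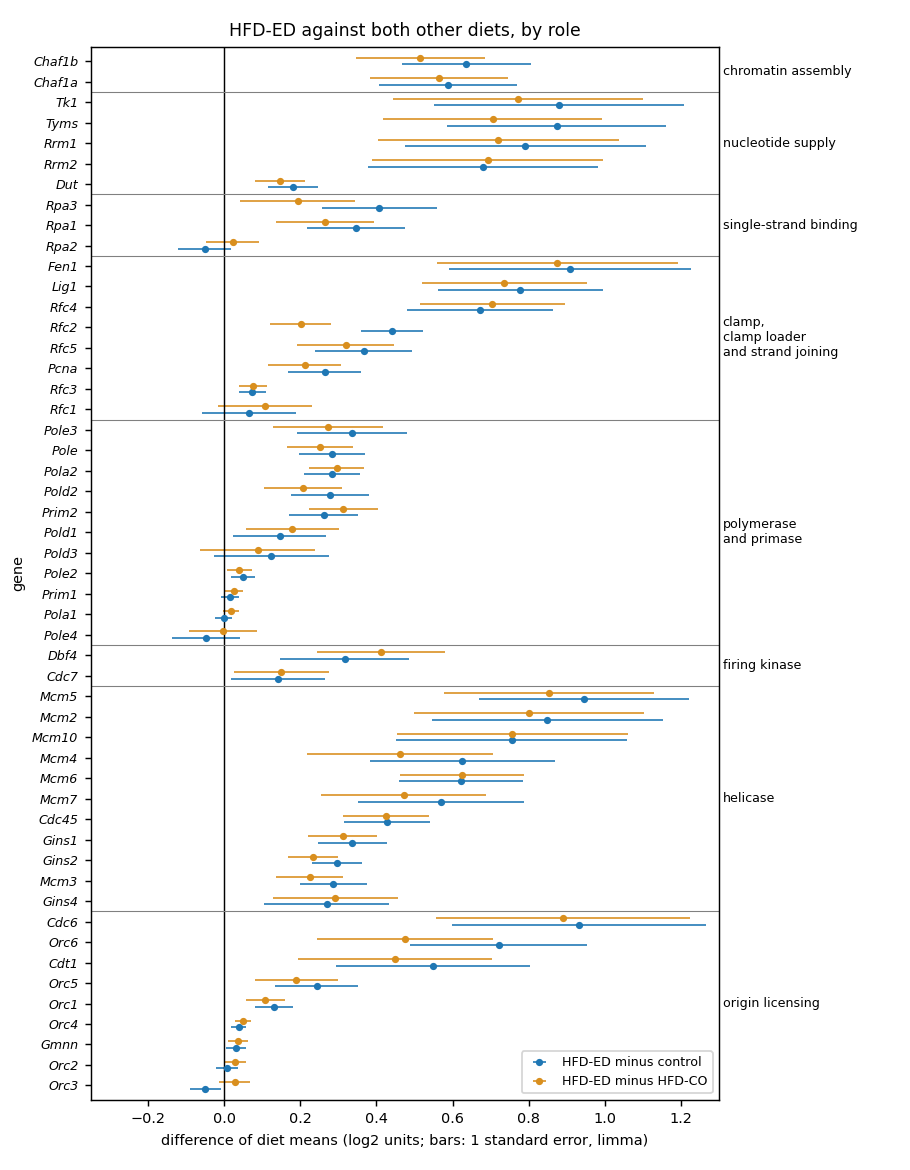
Difference of diet means in log2 units (horizontal axis) for each of the 51 genes (vertical axis, by role), HFD-ED minus control in blue and HFD-ED minus HFD-CO in orange, with bars of 1 limma standard error. Helicase, nucleotide supply and chromatin assembly genes lie to the right of 0 in both comparisons, with medians of 0.57, 0.79 and 0.61 against control, while Orc2, Orc3, Orc4 and Pola1 lie near 0.

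HFD-CO and control mice differed little in these genes. The mean was higher in HFD-CO for 31 of 51 members (47.8% of all genes), the median difference was 0.03 against -0.0018 for all genes, and 0 members differed by 0.5 or more (0.21% of all genes). Rfc2, on its brightest probe, was the only member higher at an unadjusted p under 0.05 (2.12% of all genes, 2.27% of genes that were not dim) and the only member in which all HFD-CO mice lay above all control mice (1.46%, and 1.23% of genes that were not dim). The other 3 probes of Rfc2 differed by 0.04, 0.03 and 0.08. Orc6 had a difference of similar size with a wider error (0.25 ± 0.23), and Rpa3 one of 0.21 ± 0.15. The limma adjusted p was 0.99996 for every member, and with 4 mice per diet a small difference could not be detected.

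Probes of the same gene mostly pointed the same way. The 51 members had 102 probes, and 26 members had more than 1. Of the 51 probes that did not stand for a gene 38 were dim, and of the other 13 the sign of the difference matched that of the chosen probe in 12 for HFD-ED against control, with Rpa2 as the exception, in 13 for HFD-ED against HFD-CO and in 5 for HFD-CO against control.

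Other factors of forks and origins, 35 measured genes outside the 51, had a median difference of 0.20 against control and 0.11 against HFD-CO. At an unadjusted p under 0.05, 17 were higher and 1 lower against control (5.69% and 7.55% of all genes). Against HFD-CO 13 were higher and 2 lower (6.07% and 5.82% of all genes). Of genes that were not dim, 10.3% were higher against control and 10.9% against HFD-CO. Dnmt1, the maintenance DNA methyltransferase, had the smallest p of this list, with 9.001, 9.43, 9.21 and 9.37 in control, 9.43, 9.37, 9.51 and 9.16 in HFD-CO, and 9.64, 10.13, 9.89 and 9.90 in HFD-ED. All HFD-ED mice, replicate 1 included, were above all others, with a difference of 0.64 ± 0.12 from control (limma adjusted p = 0.204) and 0.52 ± 0.12 from HFD-CO (limma adjusted p = 0.342). Asf1b, a histone chaperone, was higher by 0.25 ± 0.07 and 0.29 ± 0.07, and the dim checkpoint scaffold Topbp1 by 0.11 ± 0.03 and 0.07 ± 0.03.

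Other nucleotide enzymes, among them those of de novo purine and pyrimidine synthesis, had small differences. Their median was 0.07 against control and 0.06 against HFD-CO over 28 measured genes. At an unadjusted p under 0.05, 6 and 5 were higher and none was lower. The shares that were higher were 5.69% and 6.07% of all genes, and 10.3% and 10.9% of genes that were not dim. Uck2, the uridine and cytidine kinase, was higher by 0.54 ± 0.15 than in control, the purine synthesis enzyme Pfas by 0.39 ± 0.12 and the mitochondrial serine hydroxymethyltransferase Shmt2 by 0.23 ± 0.07 (limma adjusted p = 0.310, 0.337 and 0.344). Against HFD-CO the same genes were higher by 0.37 ± 0.15, 0.30 ± 0.12 and 0.20 ± 0.07.

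Of 17 E2F and Rb family genes and related regulators, 6 were higher against control and 9 against HFD-CO at an unadjusted p under 0.05, and none was lower. The shares that were higher were 5.69% and 6.07% of all genes, and 10.3% and 10.9% of genes that were not dim. The median difference of the 17 genes was 0.26 in both comparisons. Rb1, the retinoblastoma protein that restrains E2F, was higher by 0.55 ± 0.15 than in control, Mybl2, a regulator of late cell cycle genes, by 0.73 ± 0.22, and the repressor E2f6 by 0.31 ± 0.11 (limma adjusted p = 0.305, 0.344 and 0.405). Rb1 measured 9.53, 9.73, 9.54 and 9.68 in control, 9.88, 9.51, 9.79 and 9.46 in HFD-CO, and 9.70, 10.42, 10.35 and 10.21 in HFD-ED, so that HFD-ED replicate 1 lay among the other diets here too.

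Markers of several blood cell lineages were also high in HFD-ED replicates 2 to 4. The median deviation of 17 measured erythroid markers from the 12-mouse mean was -0.43, -0.45, -0.11 and 0.03 in control, -0.28, -0.64, 0.32 and -0.46 in HFD-CO, and -0.53, 0.81, 1.32 and 0.60 in HFD-ED. As in the replication genes, HFD-ED replicate 1 was the lowest and HFD-ED replicate 3 the highest of its diet, and control replicate 4 and HFD-CO replicate 3 were the highest of theirs. All 17 erythroid markers were higher on average in HFD-ED than in control, with a median of 0.82, and 15 of 17 were higher than in HFD-CO, with a median of 0.71. The mean level over the list ran from 8.68 to 9.49 in control, from 8.60 to 9.65 in HFD-CO and from 8.79 to 10.62 in HFD-ED, and 14 of the 17 were not dim.

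Neutrophil granule markers, 12 measured, had a median deviation of -0.43, -0.74, 0.21 and 0.23 in control, -0.29, -0.70, -0.53 and -0.74 in HFD-CO, and -0.27, 0.75, 2.09 and 0.45 in HFD-ED. In HFD-CO the highest of these was replicate 1, not replicate 3 as in the replication genes. All 12 were higher in HFD-ED than in either other diet, with medians of 0.86 and 1.34, and their mean level ran from 8.56 to 9.53 in control, 8.38 to 8.89 in HFD-CO and 8.95 to 11.10 in HFD-ED. Megakaryocyte and platelet markers, 8 measured, were all higher too, with medians of 0.49 and 0.67, and ran from 8.60 to 8.69, 8.40 to 8.55 and 8.76 to 9.41 in the same diets. Their median deviation was -0.01, -0.13, -0.03 and -0.18 in control, -0.40, -0.34, -0.22 and -0.17 in HFD-CO, and 0.04, 0.41, 0.67 and 0.39 in HFD-ED. Within control and within HFD-CO the mice stood in another order than in the replication genes.

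Lymphocyte markers went the other way. Of 8 B cell markers 7 were lower on average in HFD-ED than in control and 7 than in HFD-CO, with medians of -0.19 in both, and of 9 T cell markers 7 and 8 were lower, with medians of -0.16 and -0.23. The median deviation of B cell markers was 0.16, 0.12, -0.01 and 0.03 in control, 0.03, 0.03, -0.004 and 0.11 in HFD-CO, and 0.02, -0.11, -0.42 and -0.09 in HFD-ED. That of T cell markers was -0.03, 0.03, 0.09 and 0.08 in control, 0.14, 0.08, -0.03 and 0.06 in HFD-CO, and 0.02, -0.01, -0.63 and -0.05 in HFD-ED. HFD-ED replicate 3 was thus the lowest mouse in both lists. For T cell markers HFD-ED replicates 1 and 2 lay inside the control range and replicate 4 just below it. The part of these cell types in the differences of the replication genes was not tested.

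**Figure D4:**
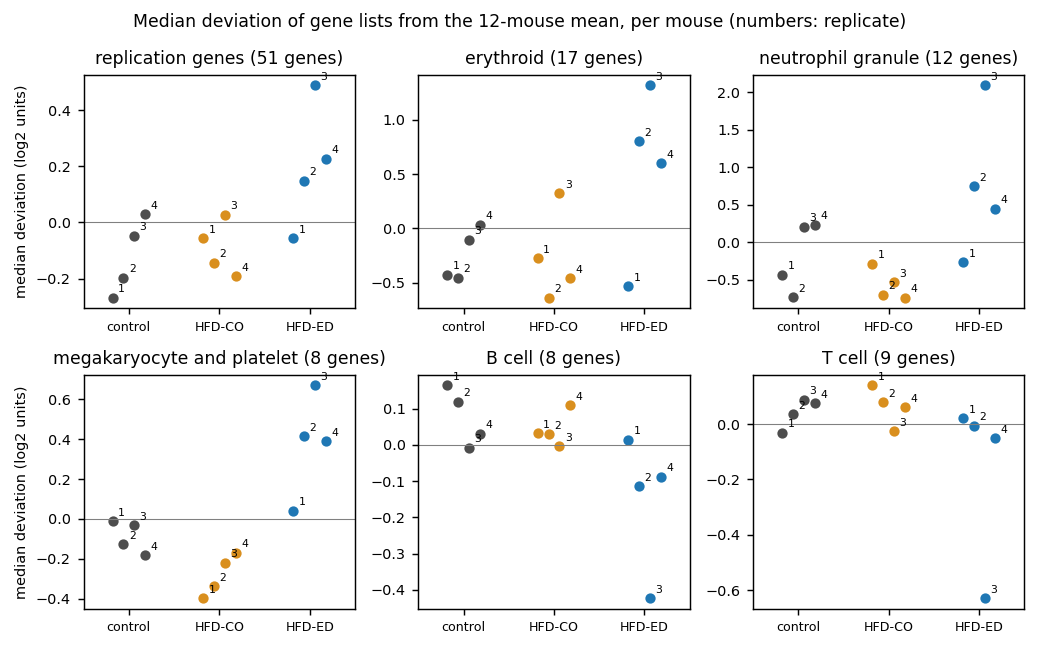
Median deviation from the 12-mouse mean in log2 units (vertical axis) of the replication genes and of 5 lists of cell type markers in each mouse by diet (horizontal axis), with replicate numbers beside the points. HFD-ED replicate 3 is the highest mouse in the replication (0.49), erythroid (1.32), neutrophil granule (2.09) and megakaryocyte (0.67) panels and the lowest in the B cell (-0.42) and T cell (-0.63) panels.

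Without HFD-CO replicate 4, the array that carried pancreatic transcripts and was the lowest of its diet in 34 members, the median difference of HFD-ED from HFD-CO was 0.22 in place of 0.27, and 14 members in place of 26 were higher at an unadjusted p under 0.05, where the share of all genes was 4.11% in place of 6.07%. The count was also lower without HFD-CO replicate 2 (16 members, 3.92% of all genes), HFD-ED replicate 3 (12) and HFD-ED replicate 4 (15 members, 4.79%).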

How the data were processed

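Total RNA from 12 spleens was hybridized to Illumina MouseWG-6 v2.0 arrays. The authors extracted signals with GenomeStudio, applied the variance-stabilizing transformation and quantile normalization of lumi (2.18.0 per the submitters' processing notes), and deposited the result, log2 values, without detection p-values; these were used as deposited. The chip and position of each array were not given in the sources used here. The values cover 45281 probes, of which 10378 had no gene symbol and 18 several in the platform annotation, leaving 19057 genes. One fit of the 3 diets over all probes was made with limma (3.58.1, R 4.3.3; lmFit and eBayes, two-sided, Benjamini-Hochberg over all probes) and was tested on simulated data. The test assumes 4 separate mice per diet, and the number of arrays limits the precision; an exact permutation test of 4 against 4 mice could not go below p = 0.0286.

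The 51 members, the other lists and the rules below were chosen with earlier results of these data known. Genes given in every mouse were, per class, the 3 members (2 in classes of 3 or fewer) with the smallest p for HFD-ED against control, the 3 largest differences each way in each comparison, and the brightest and dimmest member, 27 in all; of each other pathway list the 3 genes with the smallest p were named. Pcna was added after its values were seen. Genes outside these were given by difference and standard error only. Promoter windows came from RefSeq (GRCm38.p6). Replicate numbers were not treated as pairs in the main fit. Of 12 pairs of mice with the same number 4 had deviations that correlated above 0.1, which does not settle whether the numbers mark a pairing. Alternatives were other limma options, other normalizations, other choices of probe, a limit on dim probes and leaving out each mouse.

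Marker lists, with the number measured and the median difference of HFD-ED from control, were also checked for germinal centre B cells (6, 0.00), plasma cells (8, 0.02), natural killer cells (7, -0.25), red pulp macrophages (10 entries, -0.14), pancreatic acinar cells (9, -0.02), adipocytes (6, 0.00), skeletal muscle (10, -0.01) and spleen stroma (7, -0.16). The red pulp macrophage list held Adgre1 under both its present and an older symbol, so its 10 entries and their median count that gene repeatedly.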

Additional observations from a re-analysis of the deposited data

Results flagged for a closer look

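Dixon's 95% limit was applied to 108 sets of 4 mice of the same diet, which included sets of the 27 named replication genes. In 2 of the 108 sets a mouse stood apart from the other 3 by more than this limit. Chance passes the limit in about 1 of 20 sets. Prim2 in HFD-CO was 7.49 in replicate 2 and 7.53 in each of the other mice, a gap of a few hundredths. Pole in HFD-CO was 7.32 in replicate 4, the mouse with pancreatic transcripts, and between 7.46 and 7.49 in the others.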

How the results depend on the processing

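Over 966 recomputed differences of named genes, 950 kept their direction and their side of the threshold, 15 changed sign in Orc3, Pola1, Pole4 and Rpa2, and 1 (Rfc2 without HFD-ED replicate 1) became significant. Rpa2 against control was 0.0878 with the mean of its probes and 0.2215 with its most variable probe. With 1 mouse left out, Rpa2 ran from -0.1009 to 0.0103 against control and from -0.0270 to 0.0842 against HFD-CO, Pola1 from -0.0167 to 0.0097 against control, Pole4 from -0.0992 to 0.0697 and Orc3 from -0.0058 to 0.0526 against HFD-CO.

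Of 186 recomputed counts and medians, 171 stayed within 1.5 times (counts) or within 1 SD of the mice of a diet (medians). With 1 mouse left out, the median difference ran from 0.2286 to 0.4150 (HFD-ED against control), 0.1864 to 0.3792 (HFD-ED against HFD-CO) and -0.0212 to 0.0795 (HFD-CO against control). Members higher at an unadjusted p under 0.05 ran from 19 to 38, 12 to 38 and 1 to 1, members without overlap from 5 to 33, 4 to 33 and 1 to 1, and members past an adjusted p of 0.05 from 0 to 2, 0 to 0 and 0 to 0. Against control the unadjusted count was 21, 22 and 19 without control replicate 1, control replicate 2 and HFD-ED replicate 3. Against HFD-CO it was 16, 14, 12 and 15 without HFD-CO replicates 2 and 4 and HFD-ED replicates 3 and 4. The HFD-CO against control count was 0 with a variance trend in limma, and 0 members were without overlap there with the mean of all probes, since Rfc2 was lost. Members without overlap between HFD-ED and control were 9 with the most variable probe of each gene. With the replicate number as a block, 36, 32 and 1 members were higher at an unadjusted p under 0.05 in the 3 comparisons, in place of 34, 26 and 1. With that block 0 members passed an adjusted p of 0.05, so it changed no adjusted call. Shares of all genes are not given here for the block, the most variable probe or control replicates 1 and 2. The causes were not tested. Low signal limits the 9 dim members.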
